A study of Mus musculus with 6 samples.

Results

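The p53 family and its regulator and target genes were examined for Onecut3 binding by ChIP-Seq in p53 KO MEFs. The 41 genes were chosen by name and known role from the 21883 protein-coding genes of a mouse RefSeq gene table (GRCm38.p6, chromosomes 1 to 19, X and Y), and all 41 symbols were found there. They comprise the p53 family (3 genes), p53 regulators (4), arrest and cell cycle targets (9), apoptosis targets (13), DNA repair targets (4) and targets in metabolism, autophagy and other roles (8).

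The cells were primary embryonic fibroblasts (MEFs) of C57BL/6 origin, labelled p53 KO, in which a retroviral Tet-One construct expressed FLAG-tagged Onecut3 under 100 ng/mL doxycycline (Onecut3-OE). Chromatin was precipitated with the anti-FLAG M2 antibody, and 3 Onecut3-OE FLAG replicates have peak lists, 1 per library. The series has 3 more libraries, a FLAG library from the same p53 KO MEFs without doxycycline and an IgG and an input library from Onecut3-OE cells, which were not analysed here. Nothing read here gives the KO allele or says that the replicates came from separate cultures, so the spread between replicates may be technical. A list of peaks cannot show whether p53 was absent or whether the cells carried fibroblast markers, and FLAG signal found without Onecut3 was not subtracted. The lists held 31600, 12856 and 24822 peaks in replicates 1, 2 and 3, and merging peaks that overlapped by at least 1 bp left 50844 regions. Those with a peak in every list, 5114, are called shared regions.

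p53 is a transcription factor that is kept scarce by the ubiquitin ligase Mdm2 and its partner Mdm4 and accumulates after DNA damage and other stress. It binds paired copies of a short half-site near genes that halt the cell cycle, start apoptosis, repair DNA or adjust metabolism, and its relatives p63 and p73 recognise similar letters. Onecut3 belongs to the ONECUT family, whose members bind DNA through a cut domain and a homeodomain and are known mainly from liver, pancreas and nervous system.

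The promoters on which the data bear are shown first. They come from RefSeq (GRCm38.p6), which gave 48 promoters for 32 of the 41 genes, each from 250 bases before the transcription start site (TSS) to 50 bases from it on. Peaks overlapped the promoters of 2 members, Tigar in all 3 lists and Plk3 in replicates 2 and 3. A shared region thus overlapped 1 of the 48 (2.08%), beside 432 of all 32851 promoters (1.32%), and a region of 2 lists overlapped 352 of all. Tigar (chr6:127109503-127109802, minus strand) is shown with capitals for the 191 bases that lay inside the peaks of every list, from -176 to 14 relative to the TSS. For Plk3 (chr4:117133914-117134213, minus strand) capitals mark the letters of an ONECUT core, from -32 to -27. Cdkn1a, which has 2 promoters, is shown for contrast by that at chr17:29090729-29091028 (plus strand), with capitals for its p53 half-sites at -73 and -51. No peak of any list overlapped it, as at all member promoters but those of Tigar and Plk3.
Tigar: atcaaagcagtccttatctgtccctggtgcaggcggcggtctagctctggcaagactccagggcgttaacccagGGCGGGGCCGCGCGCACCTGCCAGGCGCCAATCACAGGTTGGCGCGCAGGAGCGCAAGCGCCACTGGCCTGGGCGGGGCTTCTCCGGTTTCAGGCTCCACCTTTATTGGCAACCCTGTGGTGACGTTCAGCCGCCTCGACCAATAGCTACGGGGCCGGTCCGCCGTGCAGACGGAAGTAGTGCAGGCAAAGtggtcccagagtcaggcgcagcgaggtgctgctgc
Plk3: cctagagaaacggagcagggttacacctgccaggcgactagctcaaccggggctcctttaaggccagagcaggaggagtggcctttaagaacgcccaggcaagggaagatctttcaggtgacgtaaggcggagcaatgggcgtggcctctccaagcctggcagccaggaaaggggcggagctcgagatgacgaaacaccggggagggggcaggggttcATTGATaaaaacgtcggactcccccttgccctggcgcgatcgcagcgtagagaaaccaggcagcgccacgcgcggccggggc
Cdkn1a: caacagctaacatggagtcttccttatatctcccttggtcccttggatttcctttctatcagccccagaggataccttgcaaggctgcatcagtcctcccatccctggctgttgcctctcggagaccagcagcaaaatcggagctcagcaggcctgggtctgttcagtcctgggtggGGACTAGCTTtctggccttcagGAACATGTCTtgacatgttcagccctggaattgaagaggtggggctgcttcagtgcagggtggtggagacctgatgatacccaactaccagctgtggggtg

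A shared region lay inside 4 members: the death receptor gene Fas, the repair genes Polk and Rrm2b, and the metabolic gene Tigar. These were 9.76% of the 41 members, beside 9.53% of the other 21842 protein-coding genes. None lay inside the 3 family genes, the 4 regulators or the 9 arrest genes, which are few beside a share of 9.53%. The arrest genes were also short (median 5.31 kb), and of other genes under 10 kb 2.07% held a shared region. Within 3 kb of either gene end the count was 1 member (2.44%, Tigar) beside 5.33% of other genes. Within 100 kb of the gene it was 23 members (56.1%) beside 40.6% of other genes. The shares inside the gene and near its ends thus stood close to or below those of other genes, and the share within 100 kb stood above. All of these are counts of called peaks in 1 condition, with no test. The counts inside and near an end rose when a replicate was left out, which asked for peaks in 2 lists in place of 3. The shares of other genes rose too. Inside the gene it was 6 members without replicate 1 (14.6% beside 11.3%) and 5 without replicate 3 (12.2% beside 12.2%). Without replicate 2, regions with a peak in both other lists lay inside 8 members (19.5%, beside 14.5% of other genes) and near an end of 5 (12.2% beside 7.91%). Near an end it was 3 members without replicate 1 and 2 without replicate 3.

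Single lists gave shares close to those of other genes in replicates 1 and 2 and above them in replicate 3. Peaks inside the gene or within 3 kb of it were found at 15 members (36.6%) in replicate 1, beside 35.5% of other genes. Replicate 2 had them at 9 members (22.0%) beside 21.2%, and replicate 3 at 17 members (41.5%) beside 31.3%. Over the lists this averaged 33.3% ± 10.2 (SD, n = 3) of members and 29.3% ± 7.38 of other genes. Both sets were counted in the same lists, so each SD describes the lists and does not measure the spread of the difference. With olfactory receptor genes left out, a choice made after seeing the data, other genes stood at 37.2%, 22.3% and 32.8% in replicates 1, 2 and 3. Members then lay below them in replicates 1 and 2 and above them in replicate 3. In any of the lists a peak was present at 21 members, beside 45.5% of other genes. Of these 21, 7 had a peak in 1 list, 8 in 2 lists and 6 in all 3 lists (Trp63, Fas, Polk, Rrm2b, Sesn1 and Tigar).

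**Figure D1:**
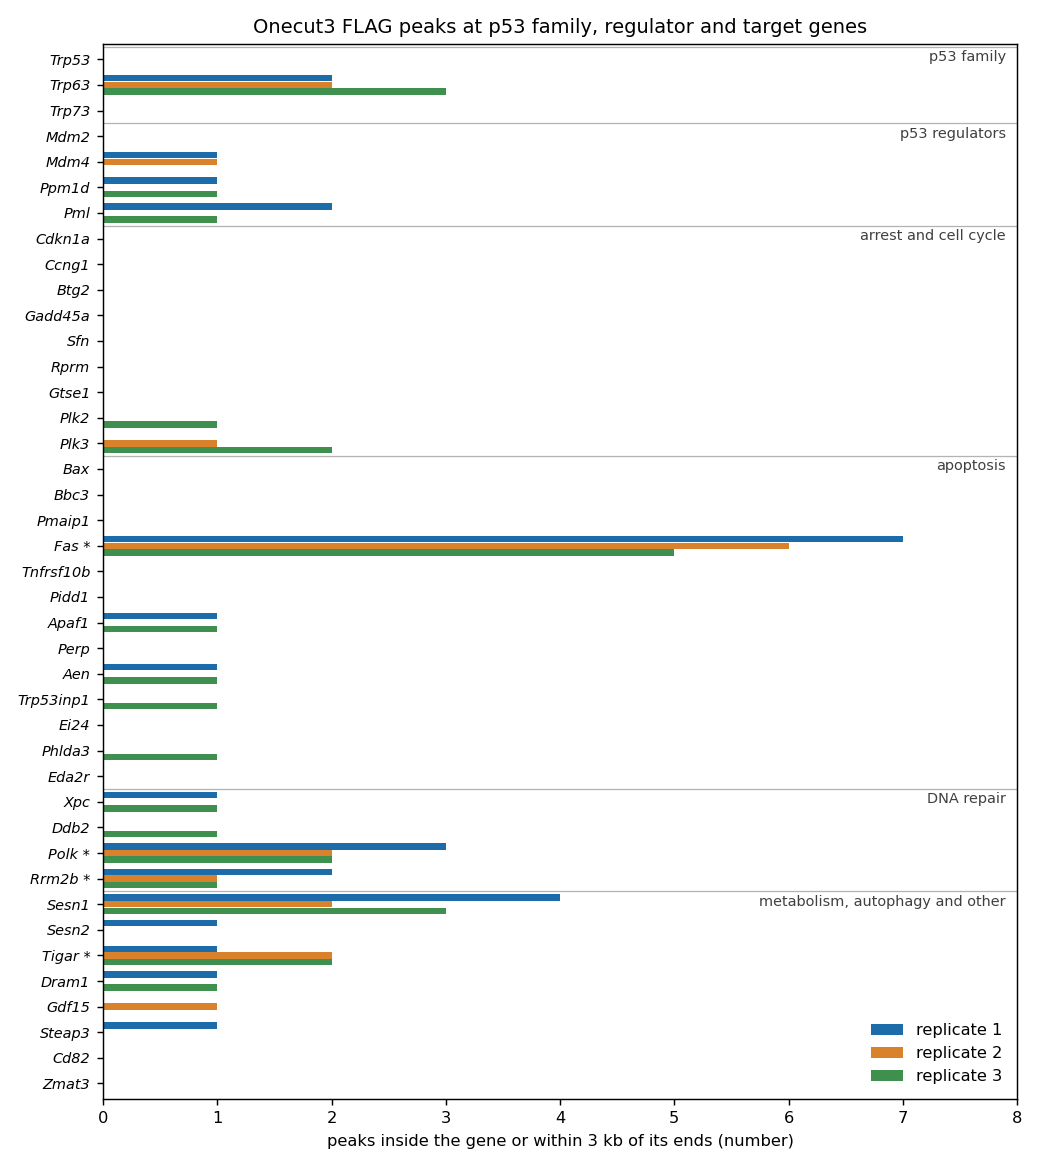
Number of peaks inside each of the 41 genes or within 3 kb of its ends (horizontal axis), with 1 bar for each replicate and genes ordered by role; an asterisk marks a shared region inside the gene. Fas had the most, 7, 6 and 5 peaks in replicates 1, 2 and 3, and 20 genes had no bar.

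The remaining 20 members had no peak inside or within 3 kb in any list (48.8% of 41), beside 54.5% of other genes. Trp53 itself and its relative Trp73 had none, nor did Mdm2, the ubiquitin ligase that is both inhibitor and target of p53. Of the 9 arrest and cell cycle genes, 7 had none: Cdkn1a (the CDK inhibitor p21), Ccng1 (cyclin G1), Btg2 (an antiproliferative factor), Gadd45a (a growth arrest and damage response protein), Sfn (stratifin, which restrains entry into mitosis), Rprm (a G2 arrest factor) and Gtse1 (a microtubule-associated protein that lowers p53 levels). Among apoptosis genes none was found at Bax (a pore-forming protein of the mitochondrial outer membrane), Bbc3 and Pmaip1 (the BH3-only proteins Puma and Noxa), Tnfrsf10b (a TRAIL receptor), Pidd1 (a caspase-activating scaffold), Perp (a tetraspan membrane protein), Ei24 (a membrane protein of the endoplasmic reticulum) or Eda2r (an ectodysplasin receptor). The tetraspanin gene Cd82 and Zmat3, which codes for an RNA-binding protein, completed this group. A gene without a peak in these lists is one where none was called at their unknown depth, which differs from one where Onecut3 was absent.

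By role, the 4 DNA repair genes had the highest share with peaks, averaged over the lists, and the 9 arrest genes the lowest. Other protein-coding genes averaged 29.3% ± 7.38 (SD, n = 3). The roles hold few genes, and their shares were not set beside those of other genes of like length. Peaks inside or within 3 kb were listed at 3, 2 and 4 of the 4 repair genes in replicates 1, 2 and 3, and at 0, 1 and 2 of the 9 arrest genes. Apoptosis genes had them at 3, 1 and 5 of 13. Metabolism and autophagy genes had them at 5, 3 and 3 of 8, regulators at 3, 1 and 2 of 4, and the family at 1 of 3 in each list, always Trp63. Averaged over the lists these were 75% ± 25 of repair, 11.1% ± 11.1 of arrest and 23.1% ± 15.4 of apoptosis genes (SD, n = 3). The shares for regulators, metabolism and autophagy genes and the family were 50% ± 25, 45.8% ± 14.4 and 33.3% ± 0. Arrest and apoptosis genes, with the lowest shares, were the shortest, with median lengths of 5.31 and 15.3 kb beside 17.2 kb for other genes. The other roles were longer, but not in the order of their shares, with medians of 31.9 kb for repair genes, 34.2 kb for regulators, 36.2 kb for metabolism and autophagy genes and 83.6 kb for the family.

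Length was also set beside the counts of shared regions. Of 14 members under 10 kb none held a shared region inside, beside 2.07% of other genes of that length. Between 10 and 50 kb it was 3 of 22 (13.6%) beside 7.14%, and over 50 kb 1 of 5 (20%) beside 25.8%. The member counts lay on both sides of those of other genes of like length, with few genes in each class.

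**Figure D2:**
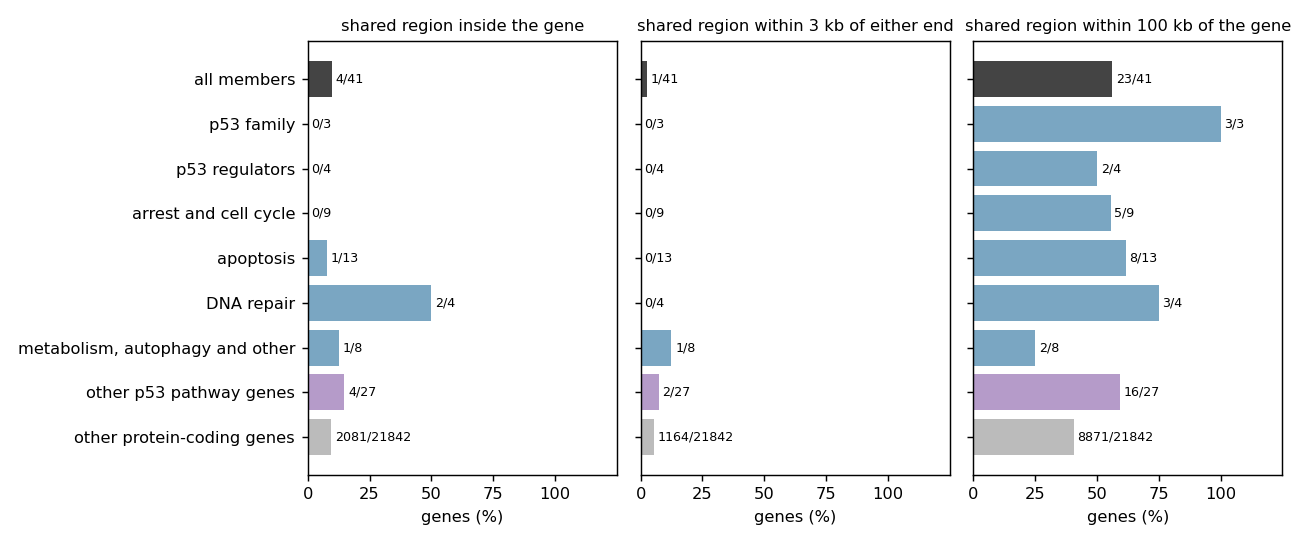
Percent of genes with a shared region inside the gene, within 3 kb of either end or within 100 kb (panels), for all members, each role, the other p53 pathway genes and other protein-coding genes; numbers give genes with a region over genes in the set. Members stood at 4/41, 1/41 and 23/41, and repair genes at 2/4 inside the gene.

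Of the shared regions inside members, the one with the highest fold in every list lay in Polk, the gene of a translesion DNA polymerase (chromosome 13 from 96480687 to 96542579). MACS gives each peak a fold, the ratio of ChIP pileup to the expected background at its summit, which moves with the depth of the library. Folds were therefore ranked within a list, and a mean and SD over the lists only describes the values. Folds at the Polk region (chromosome 13 from 96521580 to 96522295) were 5.10, 6.04 and 5.70 in replicates 1, 2 and 3, with q of 2.69e-06, 1.58e-09 and 1.55e-07. All 3 folds stood high in their lists, at percentiles 95.3, 95.2 and 96.8, and their mean was 5.61 ± 0.475 (SD, n = 3). Its midpoint lay at -2.75 kb from the downstream of the gene's TSSs, which RefSeq places inside the gene span. Another shared region lay close by, from 96523399 to 96523926, with folds of 3.02, 3.22 and 4.84. These stood at percentiles 39.2, 23.5 and 93.2 of their lists, with q of 0.0662, 0.00636 and 2.68e-05.

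In Rrm2b, which codes for the p53-inducible subunit of ribonucleotide reductase, a shared region (chromosome 15 from 37935573 to 37935926) had folds of 4.84, 3.62 and 4.14, with q of 5.10e-05, 0.0356 and 0.00301. It was, with the first Polk region, the other shared region at a member that had q of at most 0.05 in all 3 lists. Its midpoint was 11.8 kb inside the nearer gene end. Replicate 1 also had a peak of its own in Rrm2b, with a fold of 3.33.

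The other repair genes had peaks in fewer lists. Xpc, whose protein recognises distorting lesions, had a region within 3 kb of the gene in replicates 1 and 3, with folds of 4.01 and 2.82. That region also lay inside or within 3 kb of Tmem43. Ddb2, the gene of a sensor of ultraviolet damage, had 1 peak in replicate 3, with a fold of 2.87 and a q of 0.404.

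Tigar, whose protein lowers the level of a glycolytic activator, held the single shared region of a member at a promoter. The region (chromosome 6 from 127109511 to 127109877) had folds of 4.24, 3.35 and 5.41, with q of 0.00120, 0.122 and 4.18e-06 in replicates 1, 2 and 3. Summits lay at -112, -36 and -78 bp from the TSS, all inside the promoter printed above. The mean fold was 4.33 ± 1.04 (SD, n = 3), and the folds stood at percentiles 88.1, 29.0 and 96.0 of their lists. Replicates 2 and 3 each listed 1 more peak in the gene, at different places, with folds of 3.90 and 3.18.

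Fas, the death receptor gene, had more peaks than any other member: 7, 6 and 5 inside or within 3 kb in replicates 1, 2 and 3, and 23, 16 and 13 within 100 kb. Folds at its first shared region (chromosome 19 from 34309729 to 34310098, 19.3 kb after the TSS) were 2.37, 3.48 and 4.84, with q of 0.689, 0.00533 and 2.68e-05. The other (34324066 to 34324660, 33.7 kb after the TSS) had folds of 2.68, 5.45 and 3.12, with q of 0.481, 8.86e-07 and 0.142. Within their lists the folds stood at percentiles 4.91, 36.2 and 93.2 in the first region and 19.02, 91.6 and 37.1 in the other. Replicate 1 was the lowest by percentile in both, and in the first its pileup was 10 fragments over a background of 3.64, against a lowest background of 2.30 in that list. A further 4 regions at Fas had peaks in 2 lists, among them one whose midpoint was at -0.411 kb from the TSS, with folds of 2.42 and 2.33 in replicates 2 and 3. Chromosome 19 was the richest in shared regions, which lay inside 19.3% of its other genes and within 100 kb of 71.9% of them, and the part of this in the values at Fas was not tested.

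**Figure D3:**
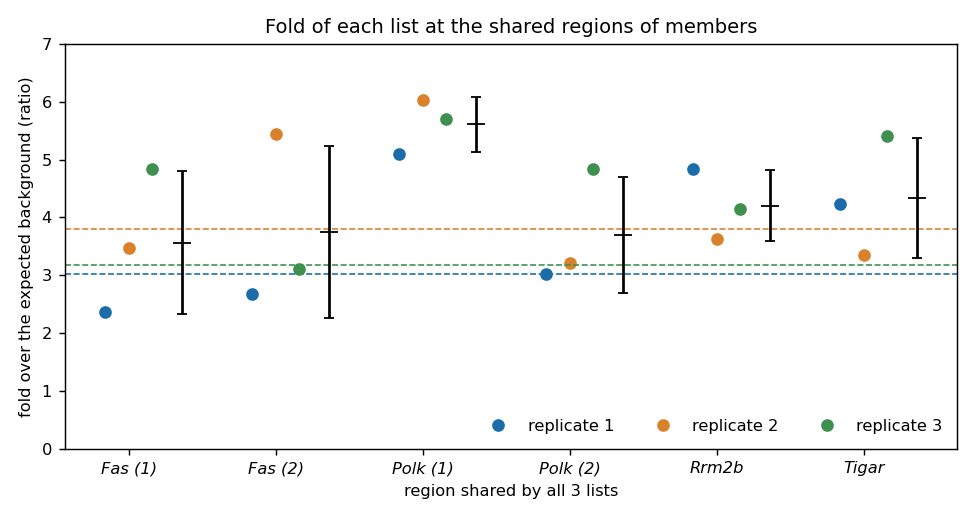
Fold over the expected background (vertical axis, ratio) of each replicate's peak at the 6 shared regions of members; black bars give the mean and SD over 3 lists, and dashed lines the median fold of all peaks in each list (3.03, 3.79 and 3.18). In the first Polk region all 3 points stood above the lines, and in both Fas regions replicate 1 lay under its line.

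**Figure D4:**
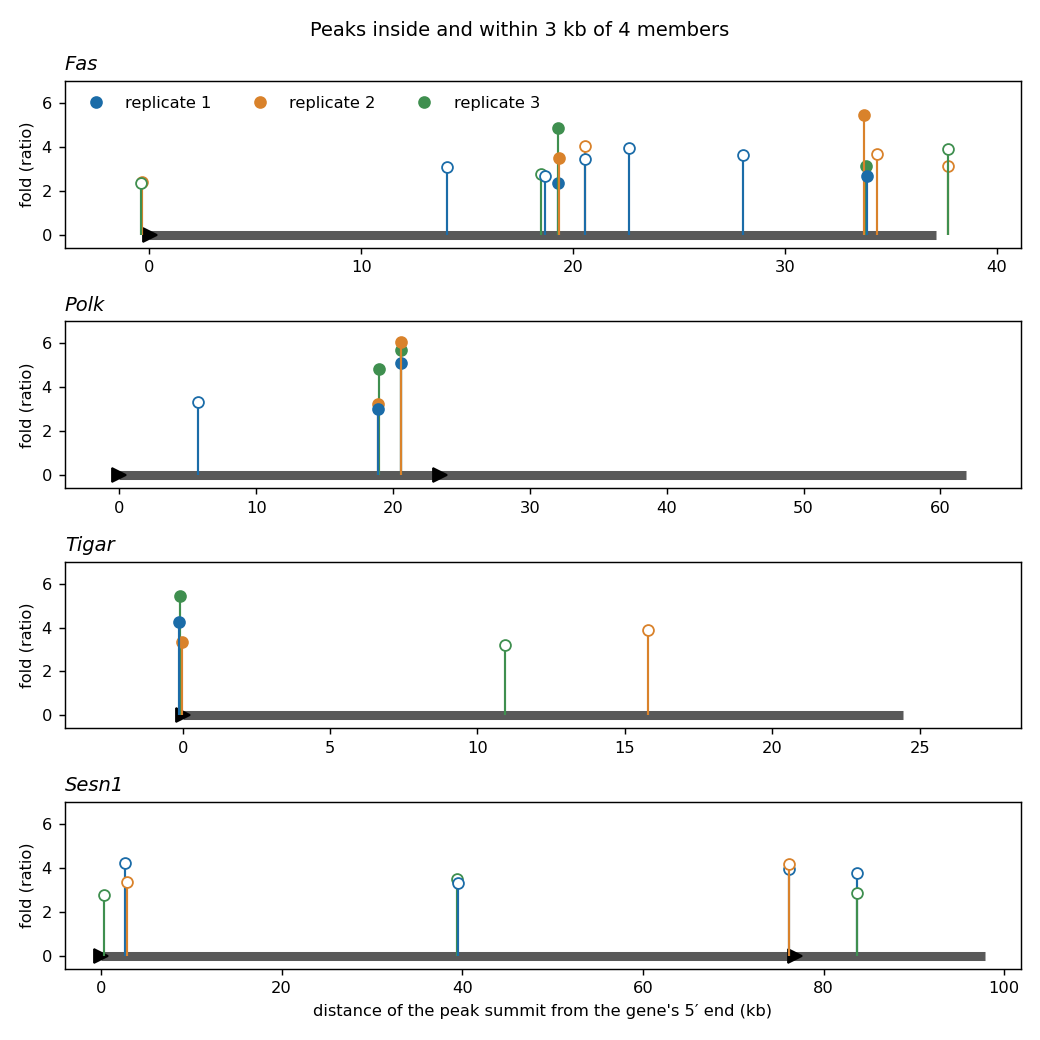
Peak summits along Fas, Polk, Tigar and Sesn1 (horizontal axis, kb from the 5′ end of the gene) with the fold of each peak as the vertical axis; filled points belong to regions shared by all 3 lists, arrowheads mark RefSeq TSSs and grey bars the gene. Tigar had its filled points at the TSS, Polk just before its downstream TSS, and Sesn1 had open points only.

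Sesn1, which codes for a stress-induced inhibitor of mTORC1 signalling, had peaks in every list (4, 2 and 3) but no shared region, since no place had a peak in all of them. It had 4 regions of 2 lists. The one nearest to a TSS, at -0.572 kb from it (chromosome 10 from 41886620 to 41887114), was in replicates 1 and 2 with folds of 3.94 and 4.18. Its nearest shared region was 1895 kb away, the farthest of any member. Sesn2, a relative with a similar role, had 1 peak in replicate 1 with a fold of 3.33.

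Trp63, the p53 relative needed for epidermis, was the family member with peaks, 2, 2 and 3 in replicates 1, 2 and 3, in a gene of 208 kb. Replicates 2 and 3 met in 1 region (chromosome 16 from 25786822 to 25787263), with folds of 3.62 and 4.14. The other peaks at Trp63 were each in 1 list.

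Among the regulators, 3 of 4 had peaks, in 2 lists each. Ppm1d, the gene of the Wip1 phosphatase that switches off p53 signalling, had a region 1.92 kb after its TSS in replicates 1 and 3, with folds of 4.24 and 3.18. Pml, which builds nuclear bodies where p53 is modified, had a region within 3 kb of its 3′ end in the same replicates, with folds of 4.54 and 3.50. Mdm4, a partner of Mdm2, had peaks of replicates 1 and 2 at different places, with folds of 3.33 and 4.18.

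At the polo-like kinase gene Plk3, a stress-responsive kinase, replicates 2 and 3 had a peak across the promoter (chromosome 4 from 117133824 to 117134106) with folds of 3.90 and 3.50 and q of 0.00939 and 0.0430. Their summits lay at -35 and -27 bp from the TSS, close to the letters ATTGAT that are in capitals above. Replicate 1 listed no peak at Plk3. Its relative Plk2 had 1 peak, in replicate 3, with a fold of 2.87 and a q of 0.404.

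Of the apoptosis genes other than Fas, 4 had peaks. Aen, the gene of a p53-induced nuclease, had a region 1.67 kb after a TSS in replicates 1 and 3, with folds of 3.63 and 4.14. Apaf1, the core of the apoptosome, had peaks in the same replicates at different places, of which that of replicate 1 had a fold of 5.15. Trp53inp1, a cofactor of p53 in stress responses, and Phlda3, an inhibitor of Akt, had 1 peak each in replicate 3, with folds of 3.18 and 3.50.

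Dram1, a lysosomal protein gene linked to autophagy, had the peak that stood highest in its list of all peaks at members, at percentile 98.4 of replicate 1, with a fold of 6.06 and a pileup of 19 fragments. Replicate 3 had a fold of 3.50 at that place, and replicate 2 had no peak in the gene. Gdf15, the gene of a stress-induced cytokine, had 1 peak, in replicate 2, with a fold of 5.20 and a q of 4.48e-06. Steap3, the gene of a ferrireductase, had 1 in replicate 1, with a fold of 2.42 and a q of 1. High and low folds alike were thus found in single lists.

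Median folds of the peaks at members were 3.63, 3.65 and 3.50 in replicates 1, 2 and 3, beside 3.03, 3.79 and 3.18 for all peaks, and so above the list's median in replicates 1 and 3 and below it in replicate 2. A q of at most 0.05 was reached by 16 of 29 peaks in replicate 1 (55.2%, beside 33.6% of all its peaks), 13 of 18 in replicate 2 (72.2% beside 71.0%) and 15 of 28 in replicate 3 (53.6% beside 47.7%). In each list 6 peaks belonged to shared regions, 20.7%, 33.3% and 21.4% of the peaks at members, beside 16.3%, 40.0% and 20.7% of all peaks. The 48 regions at members divided into 27 with a peak in 1 list, 15 in 2 lists and 6 in all 3. Of the 15, 8 joined replicates 1 and 3, 4 joined 2 and 3, and 3 joined 1 and 2.

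Within 100 kb, 36 shared regions were counted around 23 members, and most of them lay nearer to another gene. The member was the nearest protein-coding gene for 10 of the 36, at 8 members (Cd82, Fas, Gadd45a, Plk2, Polk, Rrm2b, Tigar and Trp53inp1). Counting a region for its nearest gene alone thus left 19.5% of members, beside 14.3% of other genes, so the count fell in both sets. By role, shared regions within 100 kb were found for 3 of 3 family genes, 2 of 4 regulators, 5 of 9 arrest, 8 of 13 apoptosis, 3 of 4 repair and 2 of 8 metabolism and autophagy genes. The share of other protein-coding genes was 40.6%. Fas and Gadd45a had 4 each, Polk and Tigar 3 each, 3 members 2, 16 members 1 and 18 members none. The median distance from gene to nearest shared region was 69.9 kb for members and 152 kb for other genes. Members had a median of 3 other genes within 100 kb, and other genes a median of 4.

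The regions with the highest folds around members were inside neighbouring genes. Around Gtse1 a region 27.1 kb away, in Ttc38, reached 10.2, 7.11 and 10.7 (mean 9.33 ± 1.94, SD, n = 3), the highest of the 36 regions near members in replicates 1 and 3. A region in Stambpl1, 94.9 kb from Fas, had folds of 7.65, 8.69 and 7.36, and another in Stambpl1, 87.0 kb from Fas, had 6.45, 5.15 and 5.89. Around Tnfrsf10b a region in R3hcc1, 69.9 kb away, had folds of 8.18, 8.35 and 6.37. In every list the regions of Ttc38 and R3hcc1 and the first of Stambpl1 had higher folds than all 6 regions inside members.

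Tigar had a region 39.5 kb away inside the cyclin D2 gene Ccnd2, with folds of 6.36, 6.12 and 7.32, and one at 40.2 kb on the other side with folds of 4.29, 5.55 and 5.70. Around Gadd45a 3 of the 4 regions lay inside Gng12, with folds of 4.54, 6.12 and 2.55 for the farthest (90.8 kb), 3.49, 3.14 and 5.70 for the next (55.2 kb) and 3.67, 3.29 and 2.99 for the nearest (43.1 kb). The fourth, with Gadd45a as nearest gene at 65.1 kb, had folds of 2.85, 5.13 and 4.19. Replicates ordered these regions differently, so that no region of Gadd45a was the strongest in all lists.

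Cd82 had its region closest among genes without one inside, 4.92 kb beyond the gene end, with folds of 6.96, 7.48 and 4.36. Phlda3 followed at 6.94 kb with folds of 3.26, 3.82 and 2.54, and Trp53inp1 at 8.40 kb with 5.45, 6.12 and 2.87. Cdkn1a, without a peak of its own, had a region inside Rab44 at 27.9 kb, with folds of 3.88, 5.80 and 6.55. Trp53 had one inside Dnah2 at 34.2 kb, with folds of 5.61, 3.70 and 4.14. For Mdm2 the nearest shared region was 417 kb away, for Mdm4 543 kb, for Ccng1 1018 kb and for Eda2r, on the X chromosome, 1417 kb.

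**Figure D5:**
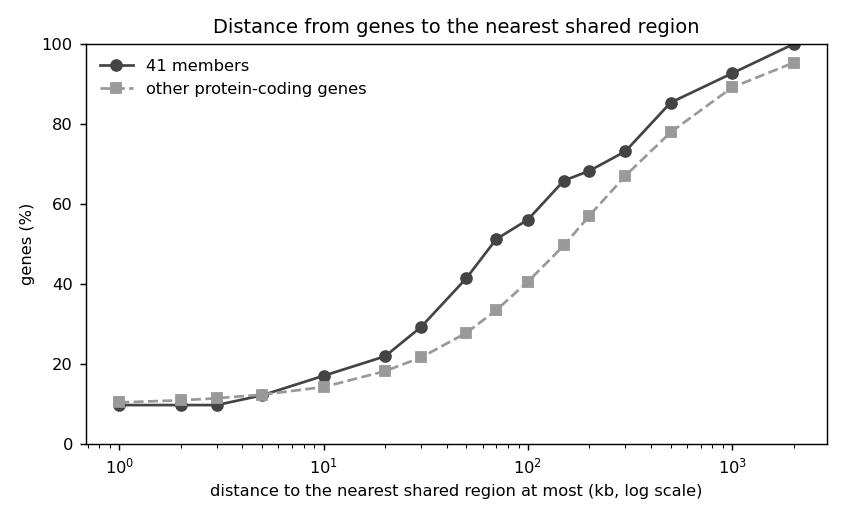
Percent of genes (vertical axis) with a shared region at most the given distance away (horizontal axis, kb, log scale), for the 41 members (circles) and other protein-coding genes (squares). Up to 5 kb the lines lay close, and from 10 kb on the members' line ran above, with 56.1% and 40.6% at 100 kb.

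Promoters were searched for letters on both strands, the ONECUT cores ATCAAT and ATCGAT and the p53 half-site of 10 letters. Core matches may overlap each other, and a promoter with either core was counted once. One of the 48 member promoters held an ONECUT core, that of Plk3 (2.08%), beside 8.40% of 32851 promoters of the same length. Cores were present in 38.4% of the 432 promoters that a shared region overlapped and in 29.3% of the 352 that a region of 2 lists overlapped. Tigar, the 1 member promoter among the 432, held neither core in its 300 bases, and Plk3 is among the 352. The Tigar promoter had a GC content of 65.3% and that of Plk3 62.7%, beside a mean of 53.8% over all promoters.

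p53 half-sites were in 14 member promoters of 13 genes (29.2%), beside 8.36% of all promoters, in genes chosen as p53 targets. The genes were Aen, Bax, Ccng1, Cdkn1a, Ei24, Gadd45a, Gtse1, Mdm2, Pml, Polk, Ppm1d, Sesn1 and Trp53. The 2 promoters of Aen overlap and hold the same half-site, which was counted in both. A full site, with half-sites at most 13 bases apart, was in 1 member promoter, that of Cdkn1a, and in 24 promoters (0.0731%) in all. No peak of any list overlapped a promoter of these 14, and neither the Tigar nor the Plk3 promoter held a half-site. Peaks were rare at promoters in general: of all 32851, a shared region overlapped 1.32% and a region of 2 lists overlapped 352. At such shares 14 promoters are too few to relate peaks to half-sites. Examples are shown with the half-site in capitals, from Mdm2 (chr10:117710927-117710952, minus strand), Bax (chr7:45467082-45467107, minus strand), Trp53 (chr11:69580276-69580301, plus strand) and Polk (chr13:96519401-96519426, minus strand), because they cover a regulator, an apoptosis gene, p53 itself and the member whose shared region had the highest folds.
Mdm2: tcggatagGAACTTGCCTagcgacca
Bax: catatcccAGGCAAGCTTtgaacttg
Trp53: ccacggaaGGACTTGCCCttacttgt
Polk: tgtagcttGAACTAGCCTcaaactta
The half-site of Polk began at -231 from the downstream TSS, and the midpoint of its stronger shared region was at -2.75 kb from it. A match of letters is a description and does not make a site.

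Other genes of the p53 pathway, 27 kinases, cofactors and targets outside the 41, gave shares above the members' at each distance. Shared regions lay inside 4 of them (14.8%), within 3 kb of either end of 2 (7.41%) and within 100 kb of 16 (59.3%). Hipk2, a kinase that phosphorylates p53, had a region with folds of 4.84, 5.29 and 4.78 in replicates 1, 2 and 3. Those of Chek1, the checkpoint kinase, were 3.03, 7.79 and 5.09 at -1.02 kb from its TSS. The damage response scaffold gene Trp53bp1 and the acetyltransferase gene Crebbp had mean folds of 3.50 ± 0.279 and 3.48 ± 1.13 (SD, n = 3), and Thbs1, the thrombospondin gene, 3.45 ± 0.952 within 3 kb of its end. The Chek1 region is also the one counted for Ei24, 51.3 kb from it. The regions of Hipk2, Chek1 and Thbs1 also lay inside or within 3 kb of Tbxas1, Stt3a and Fsip1. Other protein-coding genes stood at 9.53%, 5.33% and 40.6% by the same 3 rules. The median length of these 27 genes was 20.1 kb, beside 17.9 kb for the members, but medians do not match the sets for length. Hipk2, Crebbp and Trp53bp1, each with a shared region inside, span 189, 133 and 102 kb. Of other genes over 50 kb, 25.8% had a shared region inside.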

How the data were processed

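Members and lists were chosen with earlier results of these data known. The submitters' processing notes list, without roles, deepTools 3.3.2, Bowtie2 2.2.6, MACS2 2.1.0 and GRCm38 as the build, and the study's methods name MACS. Read filters and depth were not given in the sources used here. Peak names point to calling per library against an input. The peak lists deposited by the authors hold, per peak, a fold (ratio of pileup to background, 1 added to each), q-value and p-value as −log10, and a score of 10 times the latter. Both fold and number of peaks move with depth.

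Whole-number pileups and backgrounds, solved from fold and p within 0.001 in −log10 p, were found for 99.9%, 0.179% and 99.8% of peaks in replicates 1, 2 and 3, which left replicate 2 without pileups. Peaks were merged at 1 bp or more and set against gene spans of the RefSeq table GRCm38.p6, which holds no exons; promoters and strand came from its promoter table. A region was inside a gene if it overlapped the span by 1 bp or more, was near an end within 3 kb on either side of either end, and could count for several genes. With 1 condition there is no test. Values of each replicate are given for every shared region inside a member or within 3 kb of it, and for the members with most shared regions within 100 kb; other named values were chosen after they were seen. The values of 1 other p53 pathway gene are not reported here. Alternatives changed q (at most 0.05), fold (at least 5), overlap, windows, gene length, nearest-gene assignment and the replicates used. Calculations were run in Python 3.11.15 with matplotlib 3.10.9, pandas 2.3.3, numpy 2.4.6 and scipy 1.17.1.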

Additional observations from a re-analysis of the deposited data

How the results depend on the processing

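Of 33 recalculated counts, 19 stayed within 1.5 times the reported count and 14 did not. This tally was partly fixed in advance. Leaving out olfactory receptor genes could not move a count of members, and taking length classes apart could only lower it. With q of at most 0.05 in every peak, 2 members (Polk and Rrm2b) kept a shared region inside, 0 within 3 kb of an end and 15 within 100 kb (36.6% beside 29.6% of other genes). With a fold of at least 5 the counts were 1 (Polk), 0 and 5 (12.2% beside 7.01%). Leaving out each replicate in turn gave 5 to 8 members inside the gene, 2 to 5 near an end and 26 to 28 within 100 kb. Without replicate 2 the count inside rose to 8, adding Aen, Dram1, Ppm1d and Sesn1 (19.5% beside 14.5% of other genes). Near an end it was 3 without replicate 1 (7.32% beside 6.51%), 5 without replicate 2 (12.2% beside 7.91%) and 2 without replicate 3 (4.88% beside 6.85%). The order of these shares rests on few members and is not read as a difference. A window of 10 kb at the ends gave 5 members, and counting a region for its nearest gene alone gave 8 within 100 kb (19.5% beside 14.3%). Taken by length, 0 members under 10 kb and 1 over 50 kb had a region inside. The share of members within 100 kb was above that of other genes under every alternative run. Leaving olfactory receptor genes out of the other genes, an alternative chosen after seeing the data, gave 10.0%, 5.61% and 42.4% for them. Depth is unknown, so a missing peak cannot be told from one below detection. No paired analysis was possible because the lists come from 1 condition.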
